A study of Rattus norvegicus and Heterocephalus glaber with 6 samples.

Results

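The urinary lipocalins of the rat and related secreted proteins were followed in liver RNA as 9 listed symbols, chosen by their FPKM levels in the rat tables analysed here, so those levels are a description. Of these, 8 matched a row in the 3 rat tables: LOC259246, LOC298116, Obp3, LOC259244, Mup5, LOC298111, LOC259245 and Rup2. LOC298109 was listed but not analysed here. The 8 rows stood among 22549 rows per rat table, and 0 of the 734 naked mole rat rows carried a listed symbol. The rats had breathed 8% oxygen for 8 hours, and polyadenylated liver RNA was sequenced in 3 libraries, called rat 1, rat 2 and rat 3 after their replicate numbers. Naked mole rats with the same exposure formed the other group of 3. The labels name no strain, sex or age of the animals, and nothing in the labels says that each library came from a different animal. No effect of oxygen could be measured, since normoxia libraries were not analysed here, and with 1 rat group no difference between groups was tested. Levels are FPKM, fragment values corrected for transcript length and for library size, so levels of different genes are compared per length.

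Alpha-2u-globulins, the rat major urinary proteins, are small lipocalins, barrel-shaped carriers that hold a hydrophobic ligand. The liver of the adult male rat makes them in large amounts, releases them into blood, and the kidney passes part of them into urine, where they carry odorants and pheromones. Their genes form a family of near-identical copies, and growth hormone, glucocorticoid and thyroid hormone are known to raise their expression in liver. Rup2 is a urinary protein of a different fold, that of the Ly6 and urokinase receptor family. Of the members, 7 were lipocalin rows on chromosome 5, and Rup2 lay on chromosome 8.

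Sequence upstream of the gene start was available from RefSeq, assembly GRCr8, for 5 of the 8 members, 3 matched by symbol and LOC259244 and LOC298111 by the gene ID within their names, under which RefSeq now calls them Mup4l4 and Mup4l3. None was available for LOC259246, LOC298116 and LOC259245, among them the highest and the lowest lipocalin row by mean, so these were not compared. The 250 bases before the annotated start are printed 5′ to 3′. The lipocalin rows that have such a window differed widely in level while the windows were close copies. All lie on the minus strand: Obp3 at chr5:79640676-79640925, Mup5 at chr5:79999696-79999945, LOC259244 at chr5:79707808-79708057, LOC298111 at chr5:80318373-80318622 and Rup2 at chr8:43551457-43551706. Capitals mark the letters TATAAA, as in a TATA box.
Obp3: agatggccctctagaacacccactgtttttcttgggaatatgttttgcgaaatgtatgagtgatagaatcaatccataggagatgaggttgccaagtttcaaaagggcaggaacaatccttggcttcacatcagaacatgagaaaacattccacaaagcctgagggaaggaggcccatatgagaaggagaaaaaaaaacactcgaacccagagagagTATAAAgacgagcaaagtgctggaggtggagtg
Mup5: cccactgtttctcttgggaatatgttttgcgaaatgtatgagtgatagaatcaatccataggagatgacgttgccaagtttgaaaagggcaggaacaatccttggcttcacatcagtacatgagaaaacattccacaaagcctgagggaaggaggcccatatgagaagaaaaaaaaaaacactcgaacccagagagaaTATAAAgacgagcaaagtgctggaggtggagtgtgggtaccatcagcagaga
LOC259244: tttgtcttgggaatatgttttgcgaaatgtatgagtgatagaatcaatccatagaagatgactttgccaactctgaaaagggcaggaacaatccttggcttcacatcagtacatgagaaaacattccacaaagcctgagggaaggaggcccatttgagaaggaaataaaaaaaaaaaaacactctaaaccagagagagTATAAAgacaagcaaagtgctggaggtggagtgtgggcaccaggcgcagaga
LOC298111: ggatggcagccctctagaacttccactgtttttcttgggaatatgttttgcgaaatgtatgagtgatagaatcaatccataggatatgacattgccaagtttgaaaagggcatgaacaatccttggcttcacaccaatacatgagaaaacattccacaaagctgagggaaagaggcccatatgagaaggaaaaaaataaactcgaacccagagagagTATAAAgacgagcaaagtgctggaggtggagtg
Rup2: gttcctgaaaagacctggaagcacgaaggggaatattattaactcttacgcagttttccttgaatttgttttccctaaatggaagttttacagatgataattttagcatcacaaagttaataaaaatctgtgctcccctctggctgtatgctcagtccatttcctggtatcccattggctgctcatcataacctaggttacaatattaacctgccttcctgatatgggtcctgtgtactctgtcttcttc

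The lipocalin windows matched each other base for base over most of their length. Obp3 and Mup5 were identical at 225 of 232 aligned positions (97.0%), although their mean levels were 1103 and 2.96 FPKM. Obp3 and LOC298111 matched at 92.1%, and LOC259244 and LOC298111 at 89.2%, the lowest of the 10 pairs among these 4 windows and that of Mup4, a further gene of the locus. A run of 50 bases, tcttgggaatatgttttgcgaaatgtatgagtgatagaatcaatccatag, was shared by these 5 windows and by no other of the 33469 rat windows. TATAAA began 33 bases before the start in Obp3 and LOC298111 and 52 bases before it in Mup5 and LOC259244, whose annotated starts lie further downstream. On either strand, 12.9% of all windows held it.

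Other motifs were searched as letters on both strands, and no match overlapped another. AGAACA, a half-site for the glucocorticoid receptor, occurred in Obp3 at 238 and 118 bases before the start and was not found in the windows of Mup5, LOC259244 and LOC298111; 17.5% of all windows held it. TTCNNNGAA, bound by STAT factors, was found in Rup2 alone of the 5, 195 bases before the start (7.67% of all windows). CCAAT occurred in Rup2 at 77 bases and in LOC298111 at 117 bases (34.0% of all windows). The Rup2 window held no TATAAA. Such matches describe letters in these windows and not binding.

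LOC259246, an alpha-2u-globulin row at 5:78707323-78710745 in the coordinates of the deposited tables, was at 27466, 29187 and 17849 FPKM in rat 1, rat 2 and rat 3. It was the highest row with a value in rat 1 and rat 2 and the second in rat 3, after albumin, whose row carries in the other 2 the HIDATA status that Cufflinks gives a locus with too many fragments, so albumin was not ranked there. Its share of the FPKM total was 5.17%, 5.54% and 3.20%. The rows next below it in the order of means, Apoe and Apoc1, which encode apolipoproteins, did not exceed 18993 and 16975 FPKM in any library.

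LOC298116, at 5:78488098-78491472, followed among the lipocalins with 2222, 2070 and 1212 FPKM in rat 1, rat 2 and rat 3 (1835 ± 545, SD, n = 3, the 36th row by mean). Obp3, named as an odorant-binding protein, at 5:78088875-78092317, was at 1519, 1124 and 665 FPKM (1103 ± 427, SD, n = 3, the 61st row). The libraries of LOC298116 and Obp3 overlapped, so their order is within the spread between libraries. LOC259244, at 5:78163490-78166847, stood 20.5-fold below Obp3, at 58.7, 67.7 and 35.1 FPKM, and the 2 rows did not overlap.

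The other 3 lipocalin members lay between 0.800 and 4.30 FPKM. Mup5, a major urinary protein row at 5:78468164-78471567, was at 4.30, 3.09 and 1.48 FPKM. LOC298111, at 5:78818792-78822494, was at 3.35, 3.04 and 1.54 FPKM. LOC259245, at 5:78681440-78684760, was lowest at 2.13, 1.16 and 0.800 FPKM. These 3 rows overlapped in level, each with the next. In the order of all means LOC259245 (1.37 FPKM) lay between Ehd4 and Zbtb20, both also at 1.37 FPKM, with Prf1 and LOC680369 beyond them. From LOC259246 to LOC259245 the means within 1 gene family spanned 18187-fold, and the mean of every one of the 8 members was at least 1 FPKM. Near-identical copies can split or exchange reads, so the level of a single copy, the low ones above all, is uncertain.

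**Figure D1:**
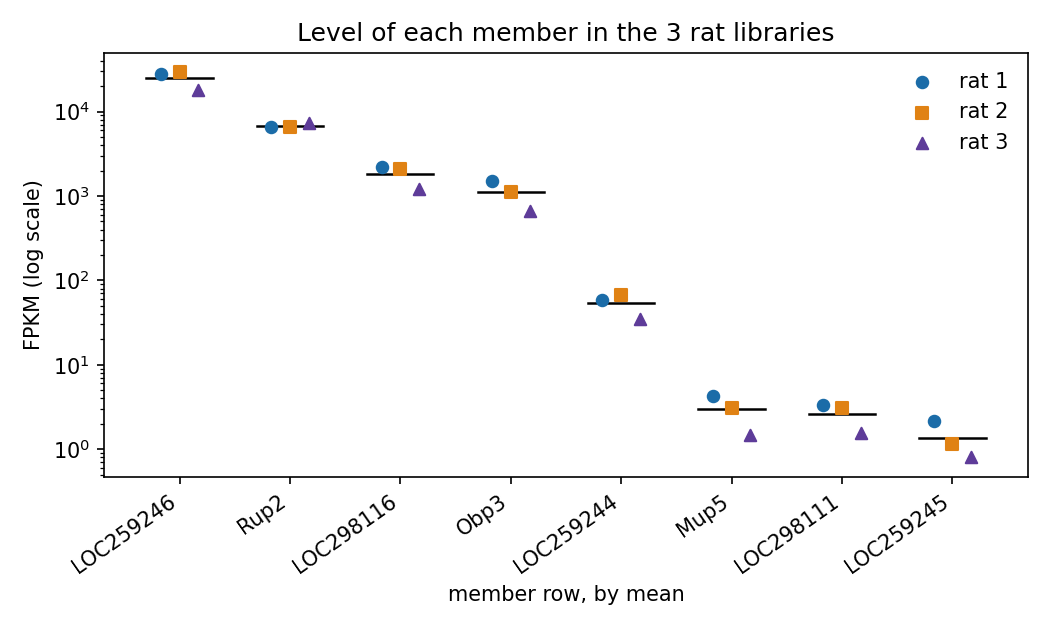
FPKM (log scale) of the 8 members in rat 1, rat 2 and rat 3, with the mean of each row as a black bar. The 7 lipocalin rows each have rat 3 lowest, and means run from 24834 FPKM for LOC259246 to 1.37 FPKM for LOC259245; Rup2 is nearly level across the rats.

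Together the 7 lipocalin rows held 5.89% of the FPKM total in rat 1, 6.16% in rat 2 and 3.55% in rat 3 (5.20% ± 1.44, SD, n = 3). LOC259246 alone made up 87.8%, 89.9% and 90.3% of that sum. LOC298116 contributed 7.10%, 6.38% and 6.13%, and Obp3 4.86%, 3.46% and 3.37%. The 4 members under 100 FPKM added between 0.197% and 0.231% of the sum. The lipocalin sum itself ranged from 32456 FPKM in rat 2 to 19765 in rat 3.

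Rup2, at 8:36680095-36683657, was at 6525, 6488 and 7286 FPKM in rat 1, rat 2 and rat 3 (6766 ± 451, SD, n = 3), the eighth row by mean. Its share of the total was 1.23%, 1.23% and 1.31%, and its highest library exceeded its lowest by 1.12-fold. All 8 members together made up 7.12%, 7.39% and 4.85% of the total. Albumin enters the total of rat 3 alone; with albumin left out of every library the mean lipocalin share was 5.25%.

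**Figure D2:**
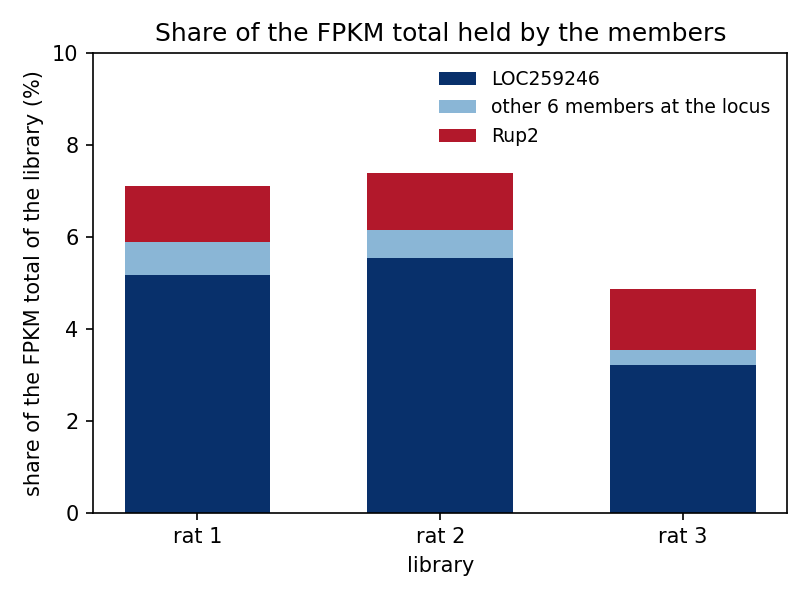
Share of each library's FPKM total held by LOC259246, by the other 6 lipocalin members and by Rup2, as stacked bars for the 3 rat libraries. The lipocalin part is 6.16% in rat 2 and 3.55% in rat 3, while the Rup2 part lies between 1.23% and 1.31%.

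The 7 lipocalin rows lay within 733.619 kb of chromosome 5, counted from the start of Obp3 to the end of LOC298111, among 11 rows in all. No member overlapped another row. The 3 most abundant members were not neighbours: LOC298116 started 399 kb and LOC259246 618 kb after Obp3. LOC259246 started 25.9 kb after LOC259245, and their mean levels were 24834 and 1.37 FPKM. RefSeq lists 15 genes named Mup or Obp3 on chromosome 5 of GRCr8, of which 8 are pseudogenes.

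Within the locus, 4 rows are not members. LOC688457, at 5:78242734-78245022, was at 658, 701 and 432 FPKM. Mup4, at 5:78216222-78219577, was at 1.75, 0.931 and 1.16 FPKM, and is the only row of the locus with its lowest value in rat 2. LOC100359419 was at 17.6, 13.6 and 7.67 FPKM and LOC685482 at 1.86, 2.87 and 0.761. With these rows the locus held 5.31% of the total on average. The next rows on each side, named after their values were seen, were Slc46a2, listed at 0 in rat 1 and rat 2 and at 0.0271 FPKM in rat 3, and LOC685577, at 77.9, 83.6 and 51.2 FPKM.

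**Figure D3:**
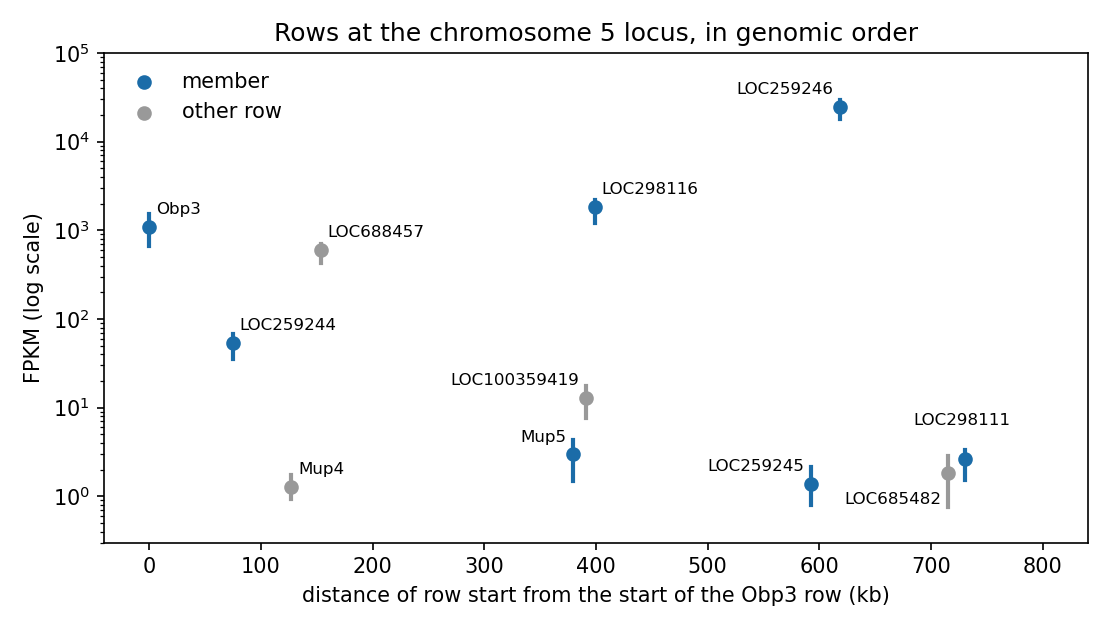
FPKM (log scale) of the 11 rows of the chromosome 5 locus against the distance of each row's start from that of Obp3, in kb. Points are means over 3 libraries and bars run from the lowest to the highest library. High and low rows are interspersed along the 733.619 kb, with LOC259246 at 24834 FPKM beside LOC259245 at 1.37 FPKM.

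Rat 3 was lowest for all 7 lipocalin members; in bulk liver, fewer cells of a type and less RNA per cell cannot be told apart. Of 9994 rows averaging 1 FPKM or more, 28.9% had rat 3 as the lowest library. The highest library exceeded the lowest by at least 1.5-fold in 7 of the 8 members, from 1.64-fold for LOC259246 to 2.90-fold for Mup5, with Rup2 the exception. That ratio was reached by 18.9% of these rows, by 17.6% of those at 100 FPKM or more and by 33.8% of those at 1000 or more. Rat 3 lay at least 1.5-fold below both other rats in 6 of the 7, the exception being LOC259245 (1.45-fold below rat 2). The same held in 1.75% of the 9994 rows. The median difference of rat 3 from the mean of the other rats was -0.82 on the log2(FPKM + 1) scale over the 7 rows, beside 0.01 over 9987 rows. Because the copies share sequence, the 7 rows are not separate observations, and the spread rests on rat 3: without it the ratio for LOC259246 was 1.06, and 1 member, LOC259245, reached 1.5-fold.

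Which of rat 1 and rat 2 was higher differed between the lipocalins. Rat 2 was highest for LOC259246 and LOC259244, and rat 1 for the other 5. Of 9987 rows averaging 1 FPKM or more and above 0 in every library, rat 1 was highest in 1749 and rat 2 in 4892. Under median ratio scaling, with size factors of 0.957 for rat 1 and 1.04 for rat 2, LOC259246 was instead highest in rat 1. Mup5 and Obp3 were 1.39-fold and 1.35-fold higher in rat 1 than in rat 2, and LOC259244 was at 0.868 times its rat 2 level. With 1 library for each replicate number these differences carry no error of their own.

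LOC688457 followed LOC259246 almost exactly. LOC259246 was 41.8, 41.7 and 41.3 times LOC688457 in rat 1, rat 2 and rat 3, whereas its ratio to LOC298116 was 12.4, 14.1 and 14.7 and its ratio to Obp3 18.1, 26.0 and 26.8. Across 662 other rows averaging 100 FPKM or more, likeness was taken as the Euclidean distance between log2(FPKM + 1) profiles centred on the mean of each row, over 3 libraries. LOC688457 was nearest to LOC259246, at a distance of 0.012, followed by Spink1, a pancreatic-type trypsin inhibitor, at 0.045, Apoa4, an apolipoprotein, at 0.047, Bhmt, which remethylates homocysteine, at 0.061, and Gpt, alanine aminotransferase, at 0.077. The median distance was 0.58, and 20 rows lay within 0.2. LOC298116 was the 14th row in this order, Obp3 the 149th and Rup2 the 490th. Among rows down to 10 FPKM, other rows took 4 of the first 5 places, with only LOC688457 kept, so the 4 further names depend on the level set. Those rows were Rhbdd2, LOC685577, Pfkfb1 and Bckdhb, of which LOC685577 is the row next after the locus. A profile of 3 values is matched by many rows. Whether LOC688457 and LOC259246 exchange reads was not tested.

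**Figure D4:**
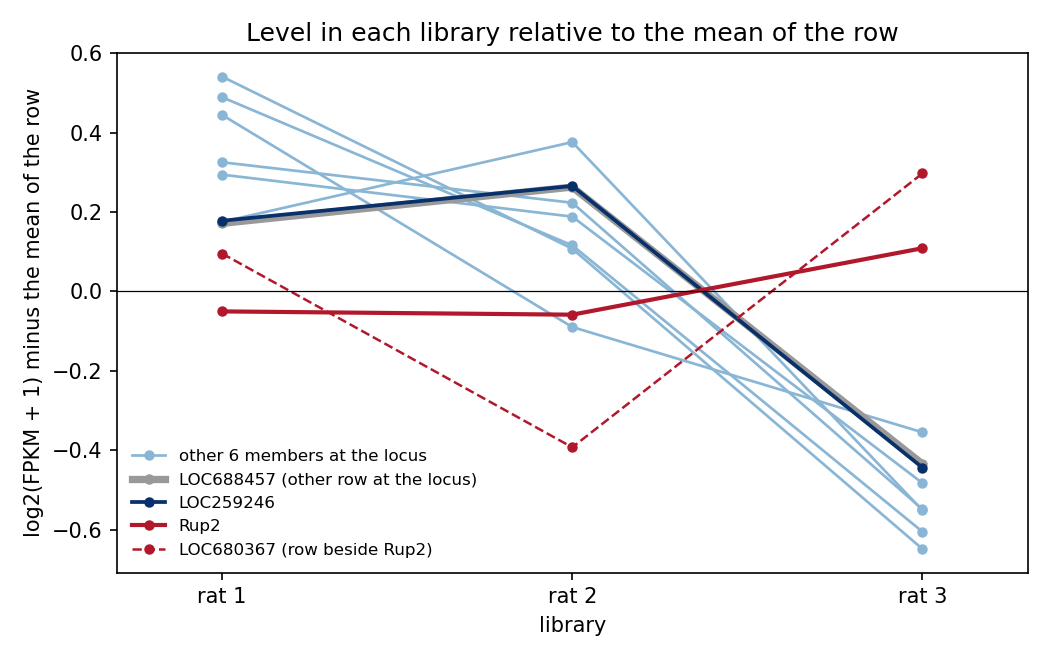
Value of log2(FPKM + 1) in each rat minus the mean of the row, for the 7 lipocalin members, LOC688457, Rup2 and LOC680367; lines join the values of 1 row and imply no order of the rats. The lipocalin rows lie between -0.35 and -0.65 in rat 3, LOC688457 runs on top of LOC259246, and Rup2 and LOC680367 are highest in rat 3.

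Beside Rup2, the next row on chromosome 8, LOC680367 (named after its values were seen), started 209 kb after it and was at 4800, 3422 and 5521 FPKM, the 18th row by mean. LOC680406, 360 kb after Rup2, which RefSeq calls Rup2l1 under the same gene ID, was at 16.6, 8.05 and 15.4 FPKM. The Rup2 and Rup2l1 windows matched at 146 of 158 aligned positions (92.4%). Rup2 was thus 393, 806 and 473 times the level of its named relative. Reads of related copies can be split here as well.

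Relative depth was close between the libraries, while several tissue marker lists were not level. From the common step of values below 0.1 FPKM, rat 1 was sequenced 1.05 times as deeply as rat 2 and 0.983 times as deeply as rat 3. Of the hepatocyte markers, 10 of 11 found had 3 values, each with a mean of at least 100 FPKM, and they summed to 36947, 39381 and 36653 FPKM in rat 1, rat 2 and rat 3. Rat 3 was lowest in 3 of the 10, Tdo2, Hnf4a and Cps1, and highest in 3. Over all rows averaging 1 FPKM or more those shares were 28.9% and 33.5%. In 0 of the 10 was rat 3 at least 1.5-fold below both other rats, beside 1.75% of those rows. At that share, 10 genes are too few to show a contrast. Of the 10, 4 were lowest in rat 2, a share not counted over all rows. They were Serpina1, at 7905, 6045 and 6136 FPKM, and 3 metabolic genes. Tat, tyrosine aminotransferase, was at 1023, 429 and 1221 FPKM, Pck1, of gluconeogenesis, at 817, 451 and 1139, and G6pc, glucose-6-phosphatase, at 540, 249 and 437. Tf, Ttr and Cps1 were instead highest in rat 2, with Tf at 11666, 14027 and 11927 FPKM. These genes were picked after their values were seen. Kupffer cell markers were higher in rat 3, with a sum of 301, 308 and 410 FPKM. Rat 3 was highest in 8 of the 8 with a mean of at least 1 FPKM, beside 33.5% of all rows at that level. The marker Marco was listed at 0 throughout. Marco lies on a scaffold outside the chromosome sequences, and all 831 rows on such scaffolds are listed at 0 in every library, so their zeros were not read as levels; no member lies on one. The most abundant Kupffer cell markers were the complement genes C1qa, C1qc and C1qb and the lectin Clec4f, at 96.4, 81.0, 37.5 and 71.2 FPKM on average. Sinusoidal endothelial markers summed to 92.9, 88.4 and 86.9 FPKM, stellate cell markers to 42.9, 30.9 and 42.1, cholangiocyte markers to 11.7, 12.9 and 16.7 and the 2 erythroid markers found to 55.0, 359 and 349, lowest in rat 1. The part of other cell types in the low lipocalin values of rat 3 was not tested.

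Among 24 other lipocalins listed, 21 were in the tables and 8 averaged 1 FPKM or more. Rat 3 was lowest in 4 of the 8, beside 28.9% of all rows at that level. In 0 of them was it 1.5-fold below both other rats, beside 1.75% of those rows. At that share, 8 genes are too few to show a contrast with the members. Ambp, the precursor of alpha-1-microglobulin, was at 7539, 8751 and 6959 FPKM in rat 1, rat 2 and rat 3. Rbp4, the retinol carrier of plasma, was at 5667, 6503 and 5624 FPKM. Orm1, an acute-phase glycoprotein, was lowest in rat 2, at 2906, 1332 and 2535. Apom, a carrier of sphingolipid in lipoproteins, was at 453, 431 and 372 FPKM and C8g, a complement subunit, at 156, 195 and 181. Lcn12 averaged 16.6 FPKM, Lcn2, which binds bacterial siderophores, was listed at 0 in rat 2 and at 7.82 and 3.08 FPKM in rat 1 and rat 3, and Obp1f averaged 1.33 FPKM. The lipocalins listed at 0 in all rats numbered 9, among them Apod, on a scaffold outside the chromosome sequences. LOC259246 was thus above every other lipocalin in every library, and LOC298116 and Obp3 lay below Ambp and Rbp4 in every one.

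Rup2 stood far above the other listed genes of its fold. Of 32 listed genes with Ly6 or urokinase receptor domains, 27 were in the tables and 4 had a mean of at least 1 FPKM. Cd59, which protects cells from complement, was highest at 26.9, 31.8 and 27.3 FPKM. Ly6e, a membrane protein of the family, was at 18.7, 12.3 and 24.6 FPKM. Lypd1 averaged 1.46 FPKM, and Plaur, the urokinase receptor, was at 1.71 and 1.74 in rat 1 and rat 3 and listed at 0 in rat 2. LOC680367 and LOC680406, which lie beside Rup2, were not on this list. Rup2 was 1.36, 1.90 and 1.32 times LOC680367 in rat 1, rat 2 and rat 3, and the fold of LOC680367 was not examined.

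The listed genes of the hormone axis of urinary protein genes, targets and feedback inhibitors of that axis included, had a median level of 8.10 FPKM over their 21 rows. That median counts 1 row of Esr1 listed at 0 on a scaffold, so it is slightly low. Of these genes, 7 averaged 10 FPKM or more. Of the 20 counted, all 20 were in the tables, and 17 had a mean of at least 1 FPKM. That level was reached by 9994 of the 22549 rows. Rat 3 was lowest in 5 of the 17 and highest in 5, beside 28.9% and 33.5% of those 9994 rows. Ghr, the growth hormone receptor, was at 86.5, 103 and 98.2 FPKM, and Igf1, a target of growth hormone, at 215, 198 and 178. Of the liver transcription factors, Hnf4a was at 136, 120 and 116 FPKM, Cebpa at 66.2, 96.1 and 74.8, and Cebpb at 80.3, 52.7 and 68.2. Bcl6, a repressor within the growth hormone pathway, averaged 16.1 FPKM, Insr, the insulin receptor, 10.9, Foxa2 9.53 and Onecut1 4.61. Stat5b, the signal transducer of growth hormone, was at 10.1, 9.38 and 8.86 FPKM, Stat5a averaged 2.78 and Jak2, the kinase bound to the receptor, 1.72. Nr3c1, the glucocorticoid receptor, averaged 8.10 FPKM, and the thyroid hormone receptors Thrb and Thra averaged 7.20 and 5.21. Esr1, the oestrogen receptor, averaged 1.95 on 1 of its rows and was listed at 0 on the other, which lies on a scaffold of that kind. Socs2 and Cish, feedback inhibitors of the pathway, averaged 0.740 and 0.348 FPKM and Cux2 0.406.

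Genes known to be higher in male or in female rat liver were read beside the lipocalins, which are themselves male-higher. Of the male-higher genes, 6 of 7 were in the tables and 5 averaged at least 100 FPKM. Of the 22549 rows, 663 had 3 values and reached that level. Cyp3a2 was at 363, 331 and 394 FPKM in rat 1, rat 2 and rat 3, Cyp2a2 at 166, 198 and 219 and Hsd3b5 at 182, 141 and 204. Cyp4a2 was at 60.7, 261 and 91.9 FPKM and Cyp3a18 at 105, 114 and 85.2, the only male-higher gene with rat 3 lowest. Rat 3 was thus lowest in 1 of the 5 and highest in 3. Those shares were 28.9% and 33.5% over all rows averaging 1 FPKM or more. Cyp2c13 and the female-higher Cyp2c12 lie on a scaffold outside the chromosome sequences too, listed at 0 like every row there, and their zeros were not read as levels. Of the 7 female-higher genes, A1bg did not exceed 0.0345 FPKM, and Cux2 was at 0.486, 0.170 and 0.564 FPKM, also highest in rat 3. The other 4, each averaging 1 FPKM or more, had rat 3 highest, as did 33.5% of all rows at that level: Cyp2a1 at 168, 195 and 223 FPKM, Sult2a1 at 65.2, 109 and 169, Srd5a1, a steroid reductase, at 27.1, 18.2 and 35.7, and Prlr, the prolactin receptor, at 6.04, 6.36 and 14.2. Genes of these CYP families have close copies, so single values are uncertain. The part of this axis in the low lipocalin values of rat 3 was not tested.

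The deposited confidence bounds did not bracket the values of 4 of the 8 members. How often this occurs among all rows was not counted, so it cannot be read as particular to the members. In LOC259246, LOC298116, LOC259244 and Rup2 the FPKM lay above its own upper bound in all 3 libraries. The value exceeded the midpoint of its bounds by a factor of 1.24 to 1.25 in LOC259246 and of at least 1.48 in Rup2. Obp3 and the 3 lowest members lay within their bounds in every library. Read as the midpoint, Rup2 averaged 4537 FPKM and LOC259246 averaged 19967 FPKM.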

How the data were processed

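Polyadenylated liver RNA was measured in 3 rat and 3 naked mole rat libraries. The values are FPKM as the authors deposited them, per the file headers, which are those of a Cufflinks gene table. Picard 1.137, Cufflinks 2.1.1, TopHat2 2.0.9 and Bowtie2 2.1.0 are named per the submitters' processing notes. Genome build and annotation: not given in the sources used here. Table coordinates are printed as deposited. No read counts were used, so absolute depth is unknown.

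Members were rows whose symbol equalled a listed one, ignoring case. The members, lists and naming rule were chosen with earlier results of these data known, so levels are described and no test was run. The rule names all members, other rows within the locus, the 5 nearest profiles, rank neighbours, the 4 highest genes of each list, and the genes found of the hormone and sex-dependent lists; some genes it takes are left out of the text and counts. Albumin, with a HIDATA status in 2 rats, was treated as missing there. Shares are of the sum over rows with a value. Python 3.11.15, pandas 2.3.3 and Biopython 1.88 were used; windows were aligned globally with free end gaps. The profile distance was tested on simulated data. Alternatives were scaling, denominator, pseudocount, level limits and leaving out each library.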

Additional observations from a re-analysis of the deposited data

How the results depend on the processing

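Of 99 values recomputed under other settings, 90 stayed within 1 SD between libraries (levels and shares) or within 1.5 times (ratios and counts). Leaving out 1 of 3 libraries, or taking the median, cannot move a mean by 1 SD. Those levels and shares therefore stayed by construction, and the tally says little about them. Leaving out 1 rat at a time, the mean of LOC259246 ran from 22658 to 28327 FPKM and the lipocalin share from 4.72% to 6.02%. The number of members whose highest library exceeded the lowest by 1.5-fold ran from 1 (without rat 3) to 7, the ratio for LOC259246 from 1.06 (without rat 3) to 1.64, and the share of rows averaging 100 FPKM or more at that ratio from 6.89% to 12.0%, beside 17.6% with 3 libraries; 2 libraries spread less than 3 by construction. That share was 33.8% for rows at 1000 FPKM or more. Of the 5 rows nearest to LOC259246, 1 remained among rows down to 10 FPKM, where more rows compete. At a limit of 10 FPKM in place of 1, 2 Ly6 or urokinase receptor genes and 7 hormone axis genes counted. The midpoint of the bounds and the share of all locus rows were settings chosen after seeing the data; the former moved Rup2 to 4537 FPKM. No paired analysis was possible because the values come from no test. Depth is unknown, so the counting error of the members near 1 FPKM is unknown too.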
